A study of Bos taurus with 8 samples.

Results

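The genes described here are 10 protein-coding genes of the bovine mitochondrial genome, ND1, ND2, ND3, ND4, ND5, CYTB, COX1, COX2, COX3 and ATP6, chosen by their symbols among the 21880 genes of the count tables. They are 10 of the 13 mitochondrially encoded protein-coding genes listed there, and between 98.9% and 99.4% of the unique molecular identifiers (UMIs, 1 per captured transcript) of those 13 genes in each library came from them. Their transcripts were followed in single cells from the semitendinosus muscle of 10 Belgian Blue donor cattle, adults and calves of both sexes, and in the cultures grown from that muscle. Muscle cells were taken unsorted directly after isolation, and P0 cells unsorted after 72 h of growth on fibronectin in a medium without serum. At passages 2, 5 and 8 (P2, P5 and P8) the cultures were unsorted (donors 1, 2 and 9), sorted for satellite cells (SCs) and grown on laminin (donors 5, 6 and 10), or sorted for fibro-adipogenic progenitors (FAPs) and grown on collagen (donors 4, 7 and 8). Donor 3 was present in muscle only. The cells of all donors were pooled into 1 library per timepoint, so a difference between timepoints and a difference between libraries cannot be told apart.

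Mitochondria carry a small circular genome that encodes a few subunits of the respiratory chain and leaves all others to nuclear genes. The ND genes encode subunits of complex I (NADH dehydrogenase), CYTB the cytochrome b of complex III, the COX genes the catalytic core of complex IV (cytochrome c oxidase), and ATP6 a subunit of the proton channel of complex V (ATP synthase). Both strands are transcribed as long polycistronic RNAs that are then cut into single messengers, so the steady-state levels of these messengers differ through processing and decay as well as through transcription. The share of such transcripts in a cell is also the usual quality measure of single-cell RNA sequencing, because cells with a broken membrane lose cytoplasmic RNA and keep mitochondria.

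The replicate is the donor. UMIs of each cell type were summed per donor and timepoint where at least 10 cells were present, and cell types are those of the authors' annotation: FAPs, SCs, vascular endothelial cells (VECs), lymphatic endothelial cells (LECs), monocytes/macrophages, lymphocytes, and a mixed class of smooth muscle and mesenchymal cells (SMMCs). In each of the groups checked, the marker list of a type had its highest summed level in that type. At P0 the SC list was at 122 ± 29.4 CPM (counts scaled to a common library total) in SCs and 97.4 ± 19.3 in SMMCs, with overlapping ranges. Monocytes/macrophages at P0 had the neutrophil list at 4942 ± 1611 CPM, beside 963 ± 273 for their own list. In muscle they had the neutrophil list at 1109 ± 1452. The 36129 cells kept by the authors' quality control held 24931622 UMIs of the 10 genes, and only 1 kept cell in muscle and 2 at P8 had none. Median depth was 4184 UMIs per cell in muscle and between 18340 and 27239.5 in the cultures. In all, 129 barcodes of kept cells occur in more than 1 library. Levels are given as UMIs per 10000 UMIs of the donor's cells of that type. They have no correction for transcript length, so levels of different genes are not ranked against each other. ATP6 overlaps ATP8, and ND4 overlaps ND4L, so reads in the shared stretch are uncertain in either gene.

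In muscle, among the 7 cell types with at least 4 donors, the summed share of the 10 genes was highest in SMMCs and lowest in VECs and FAPs. It reached 4.26% ± 0.413 of all UMIs in SMMCs (SD, n = 10 donors), with a lowest donor at 3.51%, a median of 4.24% and a highest donor at 5.04%. Lymphocytes followed with 3.98% ± 0.413 (lowest 3.52%, highest 4.72%, n = 10). SCs, the muscle stem cells, had 3.64% ± 0.355 (lowest 3.06%, highest 4.24%, n = 10), monocytes/macrophages 3.38% ± 0.325 (n = 10) and LECs 3.38% ± 0.773 (n = 4). FAPs, the connective-tissue progenitors, had 2.86% ± 0.207 (lowest 2.50%, highest 3.14%) and VECs 2.77% ± 0.272 (lowest 2.44%, highest 3.34%). Within donors, SMMCs were above FAPs, VECs and monocytes/macrophages in 10 of 10 donors, and FAPs were below SCs and lymphocytes in 10 of 10. Between neighbours in the order, SMMCs were above lymphocytes in 7 of 10 donors, lymphocytes above SCs in 8 of 10, SCs above monocytes/macrophages in 9 of 10, monocytes/macrophages above FAPs in 9 of 10 and FAPs above VECs in 7 of 10, and the ranges of each pair overlapped. Rarer types lay above and below these in values pooled over donors, at 4.80% for 12 glial cells, 3.50% for 23 tenocytes, 2.53% for 51 neutrophils and 2.33% for 45 myocytes, and the 1 donor with at least 10 neutrophils had 2.22%. Since the 10 genes were chosen as a list, no test was made on their summed share.

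**Figure D1:**
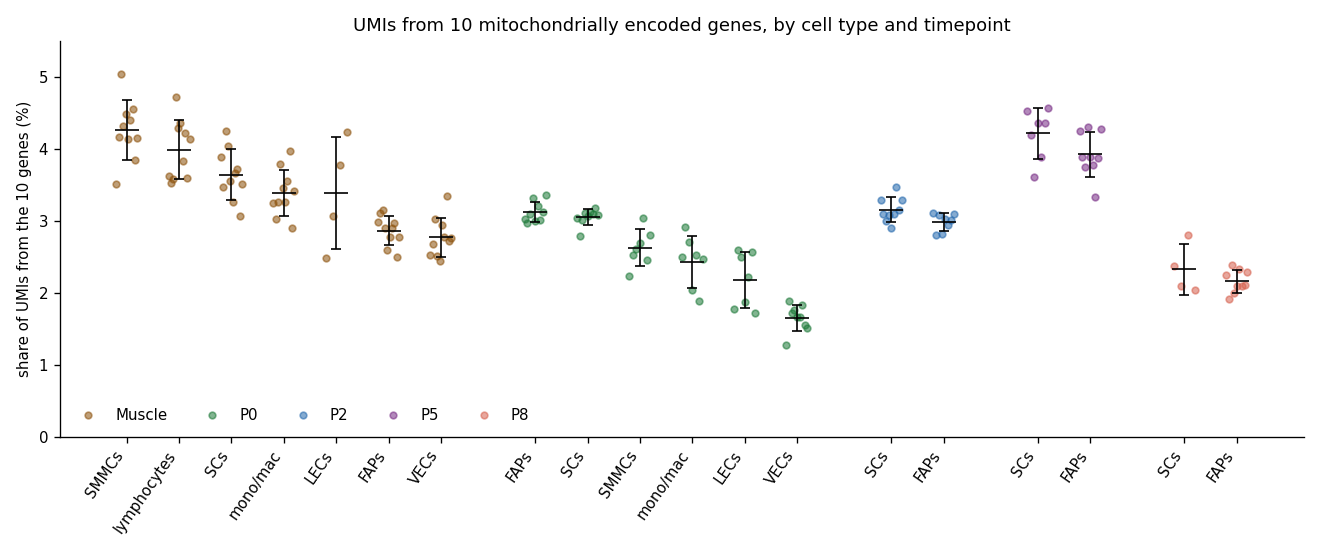
Share of all UMIs that came from the 10 mitochondrially encoded genes (vertical axis, %), by cell type and timepoint. Each point is 1 donor with at least 10 cells, and the black bar with whiskers is the mean ± SD; muscle SMMCs (4.26%) stand highest among the muscle types shown and P0 VECs (1.65%) lowest of all groups shown.

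Gene by gene, each muscle type was compared with all other kept cells of the same donors in the same library, with edgeR's quasi-likelihood test and Benjamini-Hochberg adjustment over all genes tested. A gene is called at an adjusted p below 0.05. Because many of all genes differed between a type and the rest, the size of a difference carries more than the count of calls. In SMMCs, 6 of the 10 genes were called, all higher, where 44.5% of all genes were called in either direction, and the median log2 fold change of the 10 was 0.34 against -0.04 over all genes tested. In lymphocytes all 10 were higher (50.7% of all genes called, 17.9% higher), with a median of 0.55 against -0.24. There the fitted values lay above the raw log2 ratios of the levels by a median of 0.23, and the DESeq2 median was 0.41. In SCs 5 of 10 were higher (50.1% of all genes called) with a median of 0.21 against -0.0022 over all genes.

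Complex I genes did not move as a block between muscle types. ND1 stood highest in SMMCs, at 36.4 ± 4.79 UMIs per 10000 (lowest donor 29.7, median 35.4, highest 47.8), against 20.9 ± 1.64 in the other cells, and the groups did not overlap (log2 fold change 0.74, SE 0.07, edgeR adjusted p = 3.1e-09). ND3 in the same SMMCs was level with the rest, at 22.0 ± 3.22 against 20.8 ± 1.94 (0.02, SE 0.08, adjusted p = 0.849). ND3 was instead the member with the largest difference in lymphocytes, 32.3 ± 2.80 against 20.4 ± 1.70 with no overlap (0.89, SE 0.07, adjusted p = 1.5e-11). ND5 was higher in SCs than in the other cells, at 6.42 ± 0.666 against 4.71 ± 0.402 with no overlap (0.40, SE 0.07, adjusted p = 5.2e-05), though lymphocytes had a like level (6.21 ± 0.775), and ND4 was higher there in 10 of 10 donors (28.5 ± 2.85 against 21.8 ± 1.04).

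CYTB was called higher in SCs (30.4 ± 3.49 against 23.1 ± 1.88, log2 fold change 0.35, SE 0.07, edgeR adjusted p = 1.2e-04) and lower in VECs (18.1 ± 2.95 against 25.6 ± 1.68, -0.47, SE 0.08, adjusted p = 1.2e-05). In SMMCs, whose other members were mostly high, it was not called (24.9 ± 3.16 against 24.0 ± 1.94, adjusted p = 0.962).

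COX1, a catalytic subunit of complex IV, was far lower in FAPs than in other muscle cells. It was at 37.7 ± 3.93 per 10000 in FAPs, with a lowest donor at 29.7, a median of 37.7 and a highest at 44.9, against 64.2 ± 5.43 in the other cells of the same donors. No FAP value reached the range of the rest (log2 fold change -0.71, SE 0.08, edgeR adjusted p = 3.2e-08). COX2 differed in the same way in FAPs, 29.4 ± 3.07 against 44.0 ± 3.30 with no overlap (-0.52, SE 0.08, adjusted p = 2.3e-06). COX3 did not, at 67.6 ± 7.31 against 69.0 ± 5.08 (0.02, SE 0.07, adjusted p = 0.797). ND1 was the only other member called in FAPs (-0.32, SE 0.07, adjusted p = 4.8e-04), which makes 3 of 10 called, all lower, where 50.7% of all genes were called.

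VECs also split complex IV. Of the 10 genes 9 were called there (53.8% of all genes called, 25.5% higher and 28.3% lower), 8 of them lower, and the exception was COX1, which was higher (60.6 ± 8.65 against 54.0 ± 5.85, log2 fold change 0.20, SE 0.08, edgeR adjusted p = 0.0379; DESeq2 did not call it higher). ND3 was furthest down in VECs, at 13.6 ± 1.64 against 22.9 ± 2.06 with no overlap (-0.72, SE 0.07, adjusted p = 3.2e-09). As a part of the UMIs of the 10 genes, COX1 made up 21.8% ± 1.79 in VECs, 20.1% ± 0.935 in SMMCs and 13.2% ± 0.994 in FAPs.

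ATP6 was called higher in SMMCs (51.7 ± 6.60 against 39.6 ± 2.46, log2 fold change 0.32, SE 0.07, edgeR adjusted p = 2.5e-04) and lymphocytes (0.54, SE 0.07, adjusted p = 1.1e-07) and lower in VECs (-0.31, SE 0.07, adjusted p = 4.2e-04). In monocytes/macrophages 2 of 10 genes, ND3 and COX2, were called higher (57.7% of all genes called), and 7 of 10 when only donors with at least 30 cells entered. In LECs, with 4 donors, edgeR called 0 of 10 where 14.2% of all genes were called (4.98% higher, 9.27% lower). Of those 10, 2 had an unadjusted p below 0.05, DESeq2 called 0, and the fit with the donor as a replicate block called 2.

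Depth moved with the share in muscle. When the cells of a donor were split at their median UMI count, the shallower cells had 3.34% ± 0.391 and the deeper cells 2.62% ± 0.220 in FAPs, higher in the shallower cells of 10 of 10 donors, and 3.89% against 3.03% in monocytes/macrophages (8 of 8). The shallower cells were higher in 8 of 10 donors in SCs, 7 of 10 in SMMCs, 7 of 10 in VECs and 3 of 4 in lymphocytes. The same split gave 3.15% against 3.11% in FAPs at P0 (6 of 9). At P0 the shallower cells were higher in 5 of 9 donors in SCs, 4 of 9 in VECs, 1 of 6 in SMMCs and 1 of 4 in LECs. In FAPs and SCs they were higher in 6 of 6 and 6 of 8 donors at P2, 1 of 9 and 1 of 6 at P5, and 7 of 9 and 3 of 3 at P8. Types also differed in depth, with medians of 2792 UMIs per cell in SMMCs, 2778.5 in VECs and 6213 in FAPs. Transcripts of muscle fibres, which are rich in mitochondria, were present in muscle libraries of every type: the 12 fibre genes summed to 1409 ± 193 CPM (UMI counts scaled to a common library total) in FAPs, 917 ± 320 in SCs, 712 ± 408 in VECs and 413 ± 260 in SMMCs. Lymphocytes had 944 ± 1507 CPM, with a lowest donor at 150.3 and a highest at 4931, monocytes/macrophages 542 ± 160 and LECs 500.3 ± 44.9. The part of depth and of fibre RNA in the differences between types was not tested.

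After 72 h in culture the order of types was another. FAPs had 3.12% ± 0.143 (lowest donor 2.97%, highest 3.36%, n = 9) and SCs 3.05% ± 0.111 (lowest 2.79%, highest 3.18%, n = 9), and neither was consistently above the other (FAPs higher in 5 of 9 donors). SMMCs had 2.62% ± 0.258 (n = 7), monocytes/macrophages 2.43% ± 0.359 (n = 7) and LECs 2.18% ± 0.386 (n = 7). VECs were lowest at 1.65% ± 0.186, with a lowest donor at 1.27%, a median of 1.66% and a highest at 1.88%. The highest VEC value lay below the lowest value of SCs and of FAPs.

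Against the other P0 cells of the same donors, all 10 genes were lower in VECs (66.7% of all genes called in either direction), with a median log2 fold change of -0.90 against -0.04 over all genes, and none of the 10 overlapped between the groups. The largest VEC difference was that of CYTB (10.2 ± 2.36 against 26.0 ± 2.85, -1.28, SE 0.14, edgeR adjusted p = 1.6e-07) and the smallest that of COX1 (38.1 ± 5.44 against 55.3 ± 2.66, -0.48, SE 0.06, adjusted p = 4.7e-07). LECs, the other endothelial type, had 9 of 10 lower, all but ATP6 (37.9% of all genes called), with a median of -0.45. Monocytes/macrophages had 5 of 10 lower (25.7% of all genes called), namely ND2, COX1, COX2, COX3 and CYTB, and SMMCs 3 of 10 lower (27.5%), namely ND4, COX1 and COX2 (6 with the donor as a replicate block). In FAPs 8 of 10 were higher (54.6%, 26.1% higher), led by ND5 (4.90 ± 0.311 against 3.73 ± 0.415, 0.42, SE 0.06, adjusted p = 1.2e-05), and in SCs only ND1 and COX1 were called, both higher (45.7%, 21.7% higher).

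At P0 the mean share of summed UMIs was lower than in muscle in 5 of the 6 types with donors at both timepoints. In FAPs it was higher, by less as a mean over cells, while the deposited percent was slightly lower. Paired by donor, the share was lower at P0 by a mean of 1.09 percentage points ± 0.278 in VECs (9 of 9 donors) and 1.60 ± 0.213 in SMMCs (7 of 7), with no overlap between muscle and P0 in either type, and by 0.941 ± 0.165 in monocytes/macrophages (7 of 7) and 0.519 ± 0.341 in SCs (8 of 9). In LECs it was lower in 2 of 3 donors. In FAPs it was higher by 0.290 points ± 0.297 in 8 of 9 donors, and the ranges overlapped. As a mean over cells the FAP share was 3.09% in muscle and 3.11% at P0, and the deposited percent, which covers 3 further genes, averaged 3.17% and 3.14%. Over all types, the kept cells had 3.19% ± 0.192 in muscle (n = 10) and 2.99% ± 0.157 at P0 (n = 9).

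In the fits of P0 against muscle, between 42.3% and 79.6% of all genes were called, so the direction and size of a member matter more than its being called. In FAPs 8 of the 10 were called (79.6% of all genes called, 40.6% higher and 39% lower), 6 higher and 2 lower, with a median log2 fold change of 0.19 against 0.03 over all genes. ATP6 was at 39.1 ± 2.86 per 10000 in muscle (lowest donor 34.1, median 39.5, highest 42.8) and at 18.3 ± 1.18 at P0 (lowest 16.9, median 18.5, highest 20.1). Every P0 value lay below every muscle value, and ATP6 fell by 0.98 on the log2 scale (SE 0.06, edgeR adjusted p = 2.9e-13). ND3 fell as well, from 21.3 ± 1.94 to 14.7 ± 1.28 with no overlap (-0.42, SE 0.07, adjusted p = 4.7e-06).

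The complex IV genes COX2 and COX1 rose in FAPs. COX2 went from 29.4 ± 3.07 (lowest 25.6, median 29.2, highest 35.0) to 56.8 ± 3.08 (lowest 52.1, median 56.1, highest 62.7), with no overlap (log2 fold change 1.06, SE 0.07, edgeR adjusted p = 9.5e-13). COX1 went from 37.7 ± 3.93 to 54.6 ± 2.70, also with no overlap (0.65, SE 0.07, adjusted p = 1.2e-08). ND2 rose by 0.37 (SE 0.07, adjusted p = 3.0e-05), while ND1 and ND4 were not called (0.08 and 0.09). ND5, COX3 and CYTB were called higher with values between 0.19 and 0.24, ND5 and COX3 at -0.037 and -0.050 when all donors were thinned to the smallest UMI total, a scaling that moved the median of all genes by -0.24. In that thinning 6 of 10 were called, 2 higher and 4 lower, and the share of all genes called was not counted. The fitted values of the main fit in FAPs lay above the raw log2 ratios of the levels by a median of 0.12. By raw levels 6 of the 10 genes were higher at P0 and 4 lower.

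**Figure D2:**
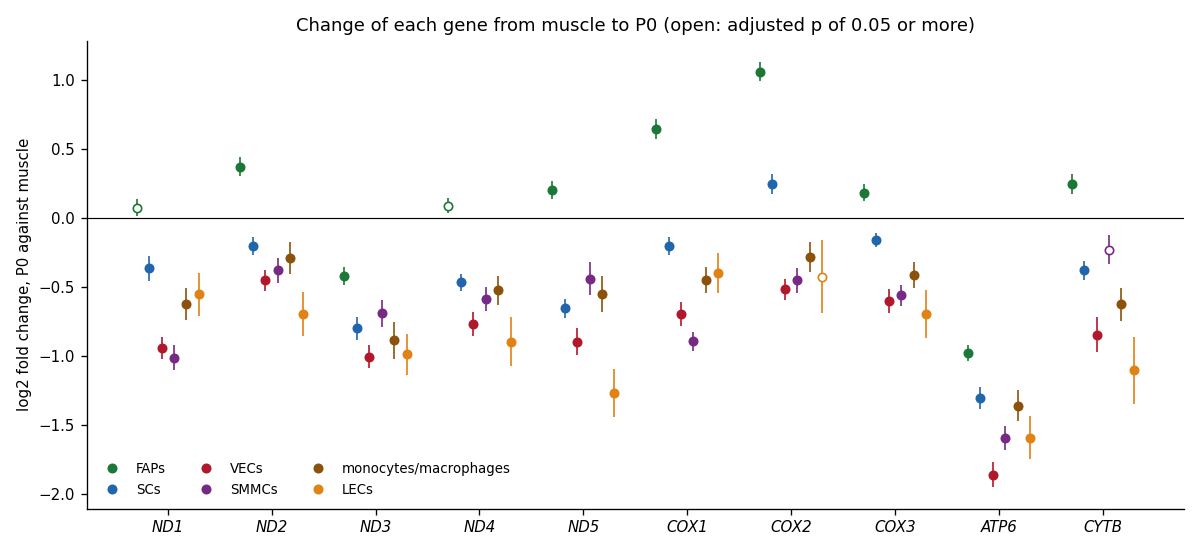
Log2 fold change of each of the 10 genes at P0 against muscle (vertical axis), with whiskers of 1 SE, for 6 cell types in colours; filled points passed an adjusted p below 0.05 in edgeR and open points did not. ATP6 and ND3 lie below 0 in all 6 types, while COX2 lies at 1.06 in FAPs and 0.25 in SCs and below 0 in the other types.

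ATP6 fell in SCs too, and COX2 was the only member that rose there. All 10 genes were called in SCs (74.4% of all genes called, 36.5% higher and 37.9% lower), 9 lower and COX2 higher, with a median log2 fold change of -0.37 and -0.0050 over all genes. ATP6 went from 43.1 ± 6.07 (lowest 34.5, median 42.6, highest 51.9) to 18.1 ± 1.2 (lowest 16.0, median 18.2, highest 19.9), with no overlap (-1.30, SE 0.08, edgeR adjusted p = 1.5e-13). ND3 fell by 0.80 (SE 0.08, adjusted p = 5.5e-09), ND5 by 0.65 (SE 0.07, adjusted p = 8.8e-09) and ND4 by 0.46 (SE 0.06, adjusted p = 2.5e-07), each without overlap. COX2 rose from 44.1 ± 6.14 to 54.4 ± 2.84 (0.25, SE 0.07, adjusted p = 0.00312, higher in 8 of 9 donors). The smaller SC differences depend on the scaling: without the filter on low counts the median of all genes moved by 0.36, and ND1 (0.015), ND2 (0.17), COX1 (0.18), COX3 (0.22) and CYTB (0.0011) then had the opposite sign, with 7 of 10 called, 4 higher and 3 lower. With the donor as a replicate block, ND2 (-0.083), COX1 (-0.12) and COX3 (-0.070) were not called in SCs.

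In the other types no member rose. VECs had all 10 lower (73.4% of all genes called, 35.6% higher and 37.8% lower), with a median of -0.81 and 9 of 10 without overlap. ATP6 in VECs went from 33.7 ± 3.80 (lowest 27.8, median 32.4, highest 39.5) to 9.48 ± 1.35 (lowest 7.36, median 9.74, highest 11.6), the largest fall of any member in any type (-1.86, SE 0.09, edgeR adjusted p = 3.0e-16). ND3 (-1.004, SE 0.08, adjusted p = 1.3e-11) and ND1 (-0.94, SE 0.08, adjusted p = 1.9e-11) followed. SMMCs had 9 of 10 lower, all but CYTB (71.4% of all genes called, 35.9% lower, median -0.57), monocytes/macrophages 10 of 10 lower (65.6%, 33.7% lower, median -0.54) and LECs 9 of 10 lower, all but COX2 (42.3%, 21% higher and 21.2% lower, median -0.80). In SMMCs ND1 fell with no overlap, from 36.4 ± 4.79 to 18.1 ± 2.04 (-1.01, SE 0.09, adjusted p = 2.3e-10), and COX1 fell from 85.4 ± 7.64 to 46.2 ± 3.91 (-0.89, SE 0.07, adjusted p = 2.1e-11). In LECs, with 4 muscle donors, ND5 (-1.27, SE 0.17, adjusted p = 8.1e-07) and CYTB (-1.10, SE 0.24, adjusted p = 0.00407) fell without overlap, and COX1 (-0.40) was at 0.0046 without the filter on low counts, a setting that moved the median of all genes by 0.41 there. With the donor as a replicate block, ND1 (-0.25), COX1 (-0.17) and COX3 (-0.34) were not called in LECs.

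ATP6 and ND3 were thus called lower at P0 in 6 of 6 types, and no other member was. Between 21.2% (LECs) and 39% (FAPs) of all genes were called lower in a single type, and the share called lower in all 6 was not counted. Within the 10 genes, ATP6 made up 13.7% ± 0.414 of their UMIs in muscle FAPs and 5.87% ± 0.234 in P0 FAPs, lower in 9 of 9 donors. The part of ATP6 was lower at P0 also in SCs (11.8% to 5.92%, 9 of 9) and VECs (12.1% to 5.74%, 9 of 9). The same held in SMMCs (12.1% to 6.56%, 7 of 7), monocytes/macrophages (13.2% to 7.45%, 7 of 7) and LECs (12.99% to 7.26%, 3 of 3). Muscle and P0 overlapped in none of the 6 types. COX2 went the other way in every donor of all 6 types, from 10.5% ± 0.835 to 18.2% ± 0.462 in FAPs and from 14.7% ± 0.706 to 17.7% ± 0.672 in VECs. These parts add to 100%, so a smaller part of ATP6 makes the other parts larger. They do not depend on library scaling.

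**Figure D3:**
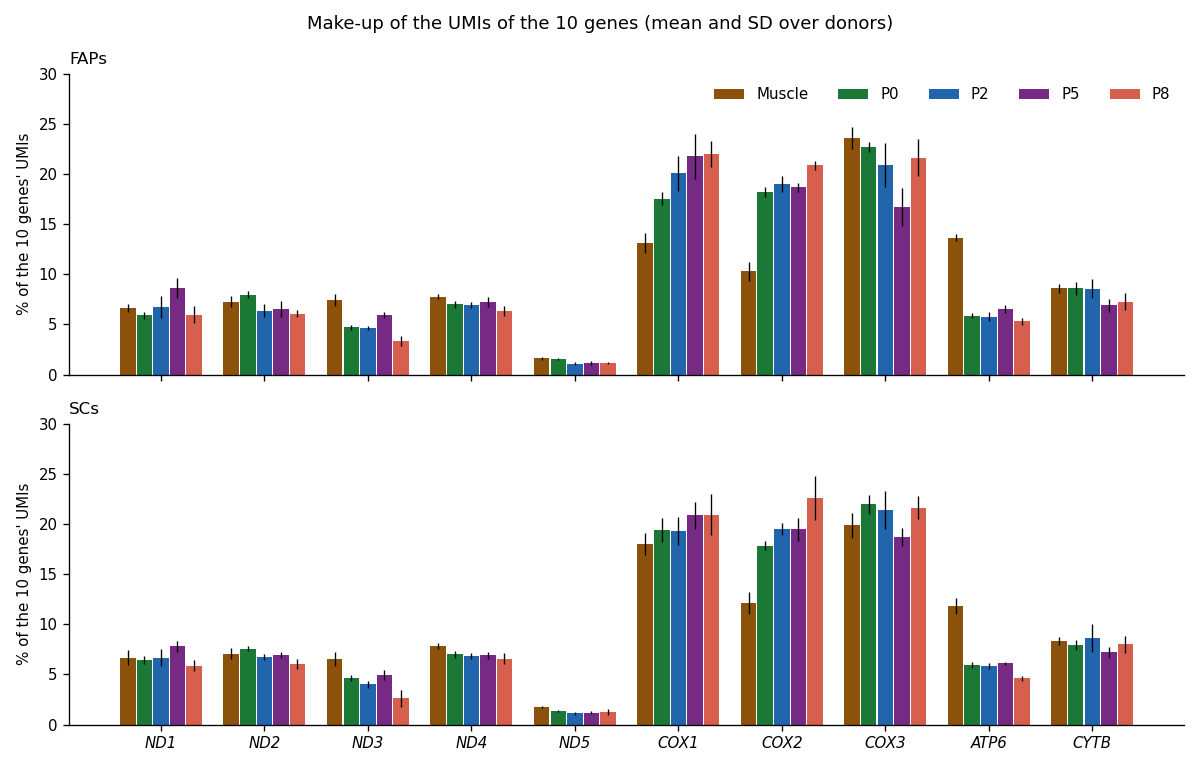
Make-up of the UMIs of the 10 genes in FAPs (top) and SCs (bottom): for each gene (horizontal axis) the mean % of the 10 genes' UMIs over donors (vertical axis, bars from 0) with SD whiskers, by timepoint in colours. The muscle bar of ATP6 (13.7% in FAPs, 11.8% in SCs) is the only one of that gene above 10%, and the COX3 bar dips at P5.

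The 3 other mitochondrially encoded protein-coding genes were not members. ATP8, which shares a transcript with ATP6, was lower at P0 in FAPs (-1.45, SE 0.10, edgeR adjusted p = 1.0e-12), SCs (-1.65, SE 0.17, adjusted p = 4.6e-09) and VECs (-1.66, SE 0.16, adjusted p = 5.4e-10). ND4L, which shares a transcript with ND4, was lower in all 6 types, with values from -0.86 in FAPs to -1.89 in LECs. ND6, encoded on the opposite strand from the members, was higher in FAPs (1.36, SE 0.12, adjusted p = 1.2e-10), SCs (0.57), SMMCs (0.69) and monocytes/macrophages (1.28) and was not called in VECs (-0.10, adjusted p = 0.405) or LECs (0.54, adjusted p = 0.177).

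The response of each type was tested against that of FAPs by the interaction of type and timepoint. This fit had no donor term, though the groups share donors, and it was run in no other setting. In the single fits, thinning to the smallest UMI total moved the median of all genes by -0.24 in FAPs. In the other types it moved by between -0.03 (SCs) and -0.08 (VECs). The FAP samples enter all 5 tests. For every member and every type the difference was negative, that is, the change at P0 was lower than in FAPs. All 10 were called in VECs (47.5% of all genes called), with a median difference of -0.89, 8 in SMMCs (30.5%, median -0.47), 8 in monocytes/macrophages (37.6%, median -0.43), 7 in LECs (14.3%, median -0.76) and 6 in SCs (39.8%, median -0.33). COX2 differed most in VECs (-1.52, SE 0.10, edgeR adjusted p = 3.0e-16) and COX1 in SMMCs (-1.30, SE 0.11, adjusted p = 9.4e-13). ATP6 fell in SCs and monocytes/macrophages by amounts whose differences from FAPs were not called (-0.09, SE 0.09, adjusted p = 0.438, and -0.14, SE 0.12, adjusted p = 0.401), and it fell further than in FAPs in VECs (-0.82, SE 0.10, adjusted p = 1.4e-08) and SMMCs (-0.37, SE 0.11, adjusted p = 0.00605). The difference of LECs from FAPs was -0.36 (SE 0.16, adjusted p = 0.134) and was not called.

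Other measures moved at the same step. Summed fibre transcripts were at 1409 CPM in muscle FAPs and 1.99 at P0, and at 0.816 to 10.4 CPM in the P0 types. Median depth rose from 6213 to 24188 UMIs per cell in FAPs. The FAP marker list fell from 25742 to 4171 CPM in FAPs and rose in SCs (257 to 1636), monocytes/macrophages (129 to 1455) and LECs (39.9 to 577). It was also higher at P0 in SMMCs (474 to 1197) and VECs (334 to 402). In SCs the SC list fell from 1159 to 122 CPM. Their part in the changes of the 10 genes was not tested, and fewer mitochondrial transcripts per cell cannot be told apart from more nuclear-encoded transcripts per cell in shares of UMIs.

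Nuclear genes of the same complexes were more often called higher than lower at P0 in all 6 types. A list of 80 nuclear-encoded subunits of complexes I, III, IV and V was compared in the same fits. At P0 against muscle, 66 of 76 tested subunits were higher and 7 lower in FAPs (median log2 fold change 0.79, with 40.6% of all genes higher and 39% lower). In VECs 58 of 73 were higher and 5 lower (0.63, all genes 35.6% and 37.8%), and in SCs 47 of 73 higher and 9 lower (0.37, all genes 36.5% and 37.9%). Monocytes/macrophages had 45 of 70 higher and 3 lower (0.54, all genes 31.9% and 33.7%), and LECs 34 of 72 higher and 4 lower (0.50, all genes 21% and 21.2%). SMMCs had 38 of 75 higher and 14 lower (0.28, all genes 35.5% and 35.9%). In SCs, monocytes/macrophages and SMMCs about the same part of the list as of all genes was called, taking both directions together. In VECs the medians of the nuclear and the mitochondrial subunits were thus 0.63 and -0.81. All 9 tested complex III subunits were higher in FAPs, with a median of 1.18, beside 0.24 for CYTB. Complex IV subunits in SMMCs were the exception, with 4 of 11 higher, 6 lower and a median of -0.26.

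Within muscle the direction of the nuclear subunits varied by type. In SMMCs 56 of 76 were higher and 3 lower than in the rest (median 0.42, all genes 19.6% and 24.9%), and in VECs 2 of 76 higher and 44 lower (-0.27, all genes 25.5% and 28.3%). In lymphocytes, where all 10 mitochondrial members were higher, 20 of 75 were higher and 15 lower (-0.0060, all genes 17.9% and 32.8%). In monocytes/macrophages 6 of 76 were higher and 40 lower (-0.27, all genes 23% and 34.7%), beside 2 mitochondrial members called higher and none lower. FAPs had 7 of 77 higher and 22 lower (-0.07, all genes 24% and 26.7%), SCs 8 of 76 higher and 4 lower (0.06, all genes 23.2% and 26.9%) and LECs 2 of 77 higher and 4 lower (-0.18, all genes 4.98% and 9.27%).

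Genes of mitochondrial transcription, RNA processing and replication form a list of 33 symbols, of which 32 were in the count tables. In FAPs at P0 against muscle, 19 of 27 tested were higher and 4 lower, with a median of 0.65, where 40.6% of all genes were higher and 39% lower. POLRMT, the mitochondrial RNA polymerase, went from 1.91 to 16.8 CPM (log2 fold change 2.94, SE 0.29), and LRPPRC, which stabilizes mitochondrial messengers, from 36.1 to 127 CPM (1.89, SE 0.13). The muscle FAP samples held a median of 612204 UMIs, against 16142200 at P0, so the muscle level of POLRMT rests on very few UMIs. Genes low in muscle can pass the filter on low counts through the P0 samples. In SCs 5 of 11 tested were higher and 3 lower (median 0.0098, all genes 36.5% and 37.9%), and in VECs 7 of 12 higher and 2 lower (0.57, all genes 35.6% and 37.8%). LRPPRC rose also in SCs (0.88, SE 0.14) and VECs (1.12, SE 0.16), types in which most members fell. TFAM, which packages mitochondrial DNA and starts its transcription, fell in all 3 types, by 0.28 in FAPs (SE 0.12, edgeR adjusted p = 0.0490), 1.15 in SCs (SE 0.16) and 0.83 in VECs (SE 0.21). TFB2M, a transcription factor of mitochondria, rose in FAPs (1.35, SE 0.15), SCs (0.54, SE 0.14) and VECs (0.76, SE 0.21). SLIRP, the partner of LRPPRC, rose in FAPs (0.24, SE 0.06) and VECs (0.37, SE 0.12) and fell in SCs (-0.22, SE 0.09). TEFM rose in FAPs (0.69, SE 0.16) and TWNK was not called there (0.14, SE 0.24). These tests use the same samples as those of the members.

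From P0 to P8 the share followed 1 course in each kind of culture, level to P2, higher at P5 and lowest at P8. The step from P0 to P2 also changed the sorting and the coating, since P0 cells of all donors were unsorted and on fibronectin. SCs of the donors whose cells were later sorted for SCs (donors 5, 6 and 10) had 3.11%, 3.07% and 3.07% at P0, 3.08%, 2.89% and 3.29% at P2, and 4.36%, 3.89% and 4.56% at P5. At P8, donors 6 and 10 had 2.09% and 2.03%, and donor 5 had 8 cells. FAPs of the donors later sorted for FAPs (donors 4, 7 and 8) had 3.09%, 3.20% and 3.00% at P0, 3.08%, 3.03% and 2.94% at P2, 3.74%, 3.77% and 3.32% at P5, and 2.39%, 2.32% and 2.09% at P8. P5 lay above P2 and P8 below P5 in every donor with no overlap, also in the FAPs and SCs of the unsorted cultures. Unsorted FAPs averaged 2.98% ± 0.156 at P2, 4.00% ± 0.213 at P5 and 2.08% ± 0.172 at P8 (n = 3), and unsorted SCs 3.18% ± 0.102, 4.35% ± 0.168 (n = 3) and 2.59% ± 0.299 (n = 2). Since each timepoint is 1 library, a course that is shared by all cultures cannot be told apart from a difference between libraries.

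**Figure D4:**
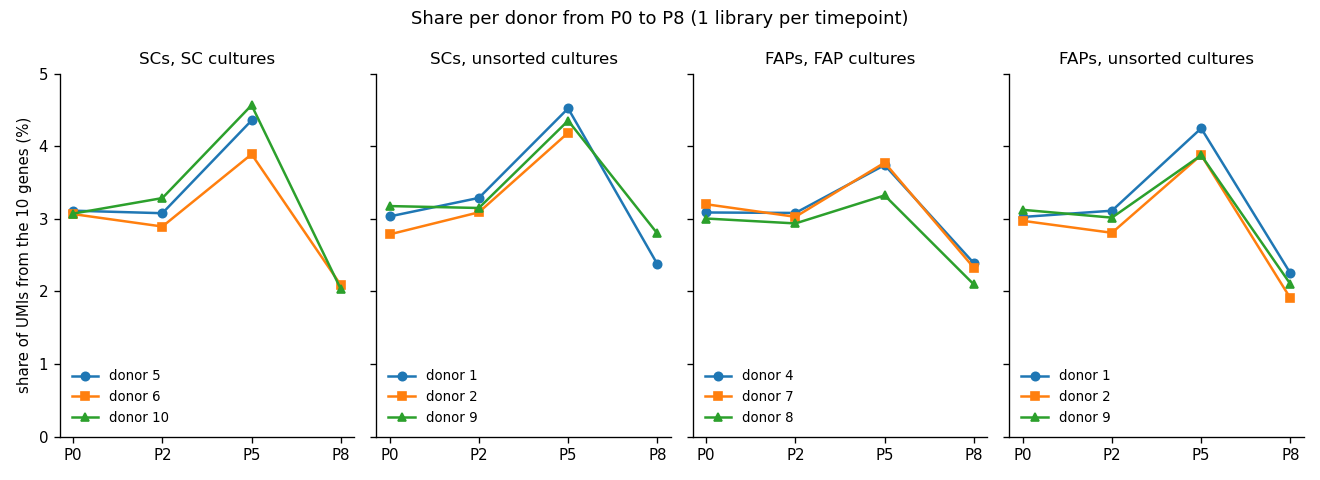
Share of UMIs from the 10 genes (vertical axis, %) from P0 to P8 (horizontal axis) for SCs of SC cultures, SCs of unsorted cultures, FAPs of FAP cultures and FAPs of unsorted cultures, with 1 line per donor. All lines are highest at P5 and lowest at P8 where they have a point there, and donors 2 and 5 have no SC point at P8 because they had under 10 SCs.

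The tests over passages use 3 donors in each arm, and neighbouring tests share samples (P2 in P2 against P0 and in P5 against P2, P5 in P5 against P2 and in P8 against P5). From P0 to P2, edgeR called 0 of the 10 genes in SCs of SC cultures, where 20.2% of all genes were called. None had an unadjusted p below 0.05, and DESeq2 called 0. In FAPs of FAP cultures 4 of 10 were called (53.8% of all genes), ND1 and COX1 higher (0.38 and 0.34) and ND2 and ND5 lower (-0.29 and -0.48), and 0 without donor 7. The fitted values there lay above the raw log2 ratios of the levels by a median of 0.12. By raw levels 2 of the 10 genes were higher at P2 and 8 lower. In those FAPs LRPPRC (-1.16, SE 0.10), POLRMT (-1.78, SE 0.17) and TFAM (-0.61, SE 0.13) fell, 20 of 32 tested genes of the transcription list were lower and 2 higher, and 35 of 76 nuclear subunits were lower and 6 higher, where 25.4% of all genes were lower and 28.4% higher. Their summed mitochondrial share differed from P0 by a mean of -0.082 points ± 0.084 (lower in 3 of 3 donors, with overlapping ranges).

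From P2 to P5, 8 of the 10 genes were called in SCs of SC cultures, all higher, where 7.33% of all genes were called, and the median log2 fold change was 0.53 against 0.0022 over all genes. ND1 was at 17.1, 18.0 and 19.0 per 10000 at P2 (donors 5, 6 and 10) and at 31.3, 29.6 and 35.3 at P5, so every donor rose (0.88, SE 0.08, edgeR adjusted p = 0.00907). ND3 was at 12.99, 11.5 and 13.3 at P2 and at 22.8, 18.9 and 25.5 at P5 (0.88, SE 0.12, adjusted p = 0.0158). COX1 was at 54.6, 57.7 and 56.2 at P2 and at 87.7, 82.2 and 84.9 at P5 (0.64, SE 0.05, adjusted p = 0.00852). ND2, ND4, ND5, COX2 and ATP6 rose by between 0.49 and 0.57. COX3 (0.25, SE 0.12, edgeR adjusted p = 0.228) and CYTB (0.37, SE 0.10, adjusted p = 0.0755) were not called in this fit. With the donor as a replicate block all 10 genes were called, all higher, in a fit where the share of all genes called was not counted. With 1 donor left out, the number called was 7 without donor 6 and 0 without donor 5 or donor 10, and the number with an unadjusted p below 0.05 was 8, 9 or 10 (9 with all donors).

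FAPs of FAP cultures had 5 of 10 called from P2 to P5, all higher, ND1, ND3, ND5, COX1 and ATP6, where 2.43% of all genes were called (287 of 11791). With the donor as a replicate block 8 of 10 were called, and the share of all genes called in that fit was not counted. ND3 was at 14.9, 14.2 and 13.8 at P2 (donors 4, 7 and 8) and at 22.0, 22.1 and 20.4 at P5 (0.70, SE 0.07, edgeR adjusted p = 0.0272). ND1 was at 20.4, 23.2 and 23.2 at P2 and at 33.2, 34.7 and 30.2 at P5 (0.66, SE 0.11, adjusted p = 0.0426). COX3, by contrast, was lower at P5 in 3 of 3 donors (66.3, 57.7 and 53.3 at P2, 56.3, 55.3 and 46.4 at P5), and the fit gave -0.05 (SE 0.11, adjusted p = 0.779). Over the 10 genes the fitted values lay above the raw log2 ratios of the levels by a median of 0.11. Without any 1 of the donors 0 genes were called, and 7 or 8 had an unadjusted p below 0.05 (8 with all donors).

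From P5 to P8, 8 of 10 genes were called in FAPs of FAP cultures, all lower, in a comparison in which 0.799% of all genes were called (90 of 11270). The median of the 10 was -0.80 against -0.0019 over all genes. Fit minus raw log2 ratio of the levels had a median of -0.11, and by raw levels all 10 were lower. ND3 went from 22.0, 22.1 and 20.4 to 9.21, 9.32 and 8.46 (donors 4, 7 and 8), the largest fall (-1.37, SE 0.08, edgeR adjusted p = 0.00573). ND1 went from 33.2, 34.7 and 30.2 to 15.6, 16.1 and 15.1 (-1.18, SE 0.09, adjusted p = 0.00721), and ATP6 from 25.3, 25.8 and 23.8 to 12.9, 12.7 and 12.4 (-1.10, SE 0.07, adjusted p = 0.00573). Each of these 3 genes was lower at P8 in every donor without overlap. COX3 (-0.34, SE 0.11, adjusted p = 0.137) and CYTB (-0.58, SE 0.13, adjusted p = 0.0784) were again the members not called. Leaving out any 1 donor left 0 called at an adjusted p below 0.05 and 9 or 10 at an unadjusted p below 0.05. The donor as a replicate block gave 10 called, and the share of all genes called with that block was not counted.

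**Figure D5:**
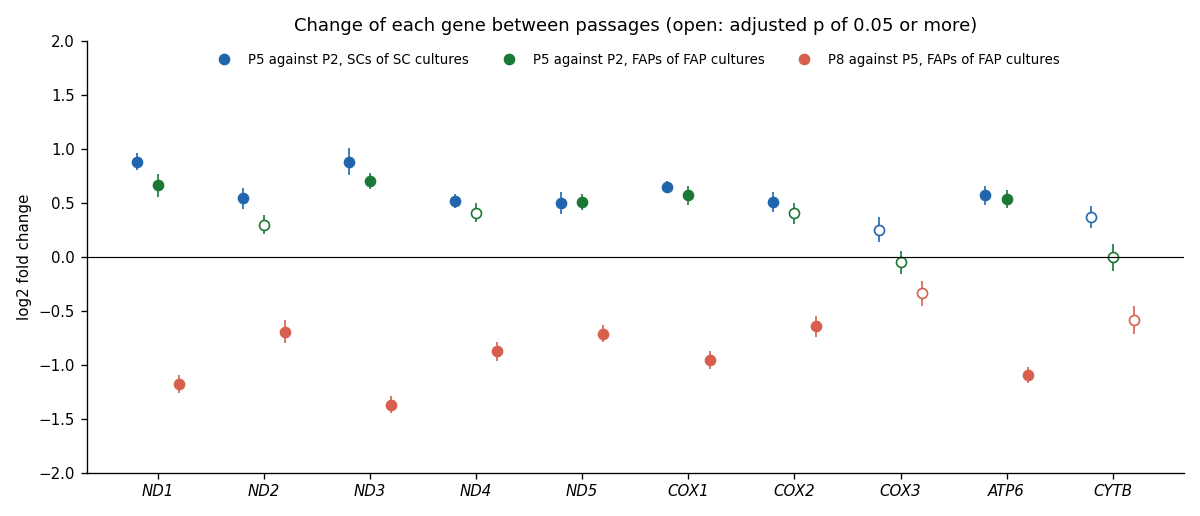
Log2 fold change of each of the 10 genes (vertical axis) with whiskers of 1 SE for P5 against P2 in SCs of SC cultures, P5 against P2 in FAPs of FAP cultures and P8 against P5 in FAPs of FAP cultures. Filled points passed an adjusted p below 0.05 in edgeR and open points did not; ND1 and ND3 lie farthest from 0 in each comparison, and COX3 and CYTB are open in all 3.

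Within the 10 genes, the part of COX3 was lower at P5 than at P2. COX3 made up 23.0% ± 1.21 of their UMIs at P2 and 19.1% ± 0.858 at P5 in SCs of SC cultures, and 19.6% ± 1.74 and 14.6% ± 0.542 in FAPs of FAP cultures, lower at P5 in 3 of 3 donors of each, and it was lower in 3 of 3 donors also in the FAPs (19.98% and 17.0%) and SCs (20.9% and 18.8%) of unsorted cultures. At P8 it was 19.8% ± 1.28 in FAPs of FAP cultures, higher than at P5 in 3 of 3 donors. ND1 (7.40%, 9.05% and 6.90% at P2, P5 and P8) and ND3 (4.74%, 5.96% and 3.97%) ran the other way in the same FAPs. The ATP6 part stayed below its muscle level at all passages, at 6.17%, 6.92% and 5.59%.

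Few genes of any kind were called at the late steps, 7.33% of all genes in SCs from P2 to P5, 2.43% in FAPs from P2 to P5 and 0.799% from P5 to P8. Of 76 or 77 nuclear-encoded subunits tested, edgeR called 0 from P2 to P5 in SCs of SC cultures and 0 in FAPs of FAP cultures, with medians of -0.09 and -0.11, and 1 from P5 to P8 (median 0.12). At an unadjusted p below 0.05 there were 10, 20 and 20 in these comparisons, and DESeq2 called 2, 12 and 12. TFAM fell in SCs from P2 to P5 (-0.65, SE 0.11, edgeR adjusted p = 0.0237) and LRPPRC rose in FAPs from P5 to P8 (0.68, SE 0.10, adjusted p = 0.0479), in both cases against the direction of the members. Fibre transcripts in SCs varied widely between donors, from 29.1 to 2427 CPM at P2 and from 85.1 to 6593 at P5, and in FAPs stayed between 19.2 and 73.4 CPM from P2 to P8; their part was not tested.

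SCs and FAPs of the same unsorted cultures were compared at P2. The share was higher in SCs in 3 of 3 donors, at 3.29%, 3.09% and 3.15% in SCs and 3.11%, 2.81% and 3.02% in FAPs (donors 1, 2 and 9), and again in 3 of 3 donors of these cultures at P5 and 2 of 2 at P8. In SC cultures the share was higher in SCs than in FAPs in 3 of 3 donors at P5 (4.27% against 4.15%, with overlapping ranges). At P8 it was lower in SCs in 2 of 2 donors of SC cultures (2.06% against 2.19%). No single gene was called in the unsorted cultures at P2 by edgeR, where 25.9% of all genes were called. None of the 10 had an unadjusted p below 0.05, DESeq2 called 0, and the fitted values lay between -0.19 (ND3) and 0.14 (ND2). Fit minus raw log2 ratio of the levels had a median of -0.10. By raw levels 9 of the 10 genes were higher in SCs and 1 lower.

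The deposited per-cell percent of mitochondrial UMIs and the share computed here differ by the 3 further genes, by averaging over cells, and by the UMI totals: those deposited were 0.977 of the matrix sums in kept muscle cells and 0.985 at P8, and the percent of a cell differed by up to 0.145 points. In P0 FAPs the deposited values averaged 3.14% and the 13 genes 3.15%. In muscle FAPs they averaged 3.17% and 2.89%, and the mean over cells of the 10 genes was 3.09%. The authors' quality control had removed singlets above a limit of this percent, and the highest kept values were 9.81% in muscle, 7.36% at P0, 6.14% at P2, 8.35% at P5 and 4.74% at P8. The removed singlets had median values of 13.5%, 21.6%, 7.27%, 10.9% and 5.83%, and they held 31.6% of the UMIs of the 10 genes in muscle, 19.3% at P0 and between 8.44% and 12.6% later. With them included, an alternative chosen after seeing the data, the mean over donors was 3.90% in place of 3.19% in muscle, 3.54% in place of 2.99% at P0, 3.14% at P2, 4.23% at P5 and 2.28% at P8, with P5 still highest and P8 lowest. The limit differs between libraries, and 2.05% of kept cells in muscle, 1.55% at P8 and less in the other libraries had over 0.90 of the highest kept value. In muscle this was 4.38% of SMMCs and 1.06% of FAPs.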

How the data were processed

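Single-cell RNA sequencing (10x droplet libraries) was aligned and counted by the authors with Cell Ranger 6.0.1 against ARS-UCD1.2, per the submitters' processing notes. Each timepoint has 1 deposited matrix of UMI counts, unnormalised, and both sequencing runs of P0, P2 and P5 are taken to be in them, which could not be checked. The deposited cell tables give, per cell, the percent of mitochondrial UMIs, the donor assigned by the authors from genotypes, and the cell type. The authors removed doublets and cells outside their limits on depth and percent mitochondrial UMIs (3 median absolute deviations), and they regressed that percent out of their own normalised values. Cell types were taken from the authors' table of all kept cells. The normalised expression table and 27 further columns of per-cell values were not used.

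Raw counts were summed per donor, cell type and timepoint (at least 10 cells, alternatively 30). Levels and shares were computed from these sums. Genes were tested with edgeR 4.0.16 (filterByExpr, TMM, robust quasi-likelihood F test; limma 3.58.1, R 4.3.3), with Benjamini-Hochberg adjustment over all genes tested and a threshold of 0.05. The SE is the absolute log2 fold change divided by the square root of F. The main fits and the interaction fits had no donor term, though most compared groups share donors. DESeq2 1.42.0 was an alternative to the main fits, with others on filter, scaling, donor block, cell minimum, a log2 fold change above 1 and single donors left out. The share of all genes called was counted for the main and the interaction fits only. The scripts were tested on simulated data. Same-numbered donors are the same animals: correlations of their deviations ran from -0.160 to 0.181 for P0 against muscle, and from 0.263 to 0.620 between passages of FAP cultures. The text names all 10 members, whichever way they moved, the other 3 mitochondrially encoded protein-coding genes, nuclear genes from set lists, and the 5 genes whose levels were most like those of the members. Members and lists were chosen with earlier results of these data known. Median depth per cell was 4184 UMIs in muscle and 18340 to 27239.5 later.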

Additional observations from a re-analysis of the deposited data

Results flagged for a closer look

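Values of 4 to 10 donors were examined in 209 sets, each the summed share or 1 gene in 1 cell type and timepoint. Of these sets, 14 had a donor far from the others by Dixon's criterion, which chance gives in about 1 of 20 sets. The summed share holds the 10 genes and their levels vary together, so the sets are not independent. Levels are UMIs per 10000. In muscle, donor 3 had ND2 at 34.9 in SCs (next donor 26.3, 26 cells), ND5 at 8.08 in SMMCs (next 6.26) and ND4 at 17.6 in lymphocytes (next 23.7, 10 cells). Donor 8 had COX3 at 67.0 in muscle VECs (next 58.1) and CYTB at 35.5 in muscle monocytes/macrophages (next 27.9, 15 cells), and donor 4 had ND2 at 35.5 in muscle lymphocytes (next 28.4, 12 cells).

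At P0, donor 2 had the lowest summed share of SCs, 2.79% (next 3.02%, 45 cells), and the lowest ND3 in SCs, 11.3 (next 13.3). COX1 was at 61.1 in the P0 FAPs of donor 5 (next 56.4) and at 54.4 in the P0 SMMCs of donor 8 (next 47.4), and COX2 at 21.8 in the P0 VECs of donor 1 (next 27.6). At P2, donor 8 had ATP6 at 22.3 (next 18.9) and CYTB at 41.3 (next 31.3) in 18 SCs of a FAP culture, and at P5 COX2 at 60.4 in FAPs (next 70.6).

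The change from muscle to P0 differed from that of FAPs, by the interaction test in edgeR, for 6 of the 10 genes in SCs (39.8% of all genes called) and 10 in VECs (47.5%). It differed for 8 in SMMCs (30.5%), 8 in monocytes/macrophages (37.6%) and 7 in LECs (14.3%).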

How the results depend on the processing

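Of 1166 recomputed log2 fold changes of called genes, 910 kept direction and call, 248 kept direction only and 8 changed sign. For P0 against muscle without the filter on low counts, the SC values of ND1 (0.015), ND2 (0.17), COX1 (0.18), COX3 (0.22) and CYTB (0.0011) and the LEC value of COX1 (0.0046) changed sign, and in FAPs ND5 (-0.037) and COX3 (-0.050) did when UMIs were thinned to equal totals. The numbers called there were 7 in SCs (unfiltered), 6 in FAPs (thinned) and 5 in LECs (unfiltered). Unfiltered, muscle SCs had 3 called, muscle monocytes/macrophages 1, muscle LECs 2 and P0 SMMCs 5. Muscle monocytes/macrophages had 7 with at least 30 cells, and 7 with mitochondrial genes left out of the scaling. With a log2 fold change above 1 also required, P0 against muscle had 1 called in FAPs, SCs and monocytes/macrophages, 2 in VECs and SMMCs and 3 in LECs; P0 VECs against the rest had 4, P8 against P5 had 3, and the remaining comparisons had 0. With the donor as a replicate block, muscle LECs had 2 called, P0 SMMCs 6 and FAPs from P2 to P5 8, and the other numbers called stayed within 1.5 times. Besides these, the block ended 6 calls, those of ND2, COX1 and COX3 in SCs and of ND1, COX1 and COX3 in LECs from muscle to P0. Leaving out 1 donor gave 7 to 9 called in LECs from muscle to P0, 8 to 10 in P0 LECs, 0 to 7 in SCs from P2 to P5 (0 without donor 5 or 10), 0 to 3 in FAPs from P0 to P2 (0 without donor 7), and 0 in FAPs from P2 to P5 and from P5 to P8, in muscle LECs, in SCs from P0 to P2 and in SCs against FAPs at P2. The share of all genes called was not counted in these settings, and the causes were not tested. The mean share was 3.09% in muscle FAPs as a mean over cells, and 1.77% in P0 LECs with at least 30 cells (1 donor). With removed singlets included, chosen after seeing the data, it was 3.90% in muscle and 3.54% at P0. Calf-against-adult comparisons were not run. The paper lists each donor as calf or adult, but the labels and cell tables used here give no donor ages. With a minimum of 30 cells no test could be made of lymphocytes, of LECs, or of monocytes/macrophages at P0.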

Other observations

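Across the 19 groups of cell type and timepoint with at least 3 donors, the mean log2 CPM of the 10 genes was most like that of LENG8 (Pearson r = 0.724), ATM (0.708), ENSBTAG00000054926 (0.691), ELMO2 (0.684) and ZC3H10 (0.679), among 7979 genes compared. The groups share libraries and depth, so these values are a description. Among the 45 pairs of the 10 genes themselves, r had a median of 0.807, with the highest value for ND4 and CYTB (0.943) and the lowest for COX2 and ATP6 (0.033).

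Of the 8 regulators of mitochondrial biogenesis, 5 were tested in FAPs at P0 against muscle, and 3 were higher and 1 lower (40.6% and 39% of all genes). In FAP cultures 1 of 8 was higher and 5 lower at P2 than at P0 (28.4% and 25.4% of all genes). The 1 higher was PPARGC1A (log2 fold change 2.41, SE 0.41, edgeR adjusted p = 0.00341). From P2 to P5 in both kinds of sorted culture, and from P5 to P8 in FAP cultures, edgeR called none of the 8, where 7.33% (SCs), 2.43% and 0.799% of all genes were called. In these comparisons 0 of 8 in SCs, and 2 and then 1 of 8 in FAPs, had an unadjusted p below 0.05, and DESeq2 called 0 in each.

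In FAP cultures from P0 to P2, further genes of the list of mitochondrial transcription, RNA processing and replication fell. TFB2M fell by 1.14 on the log2 scale (SE 0.16, edgeR adjusted p = 0.00152) and TWNK, the helicase of mitochondrial DNA, by 0.97 (SE 0.21). SLIRP fell by 0.66 (SE 0.08), MTPAP, the polymerase of poly(A) tails, by 0.62 (SE 0.21) and TEFM by 0.47 (SE 0.12). POLG, the DNA polymerase, was at -0.61 (SE 0.31, adjusted p = 0.129). SLIRP fell again from P2 to P5 (-0.44, SE 0.08, adjusted p = 0.0497).

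VECs at P0, the type with the lowest mitochondrial share, also had lower nuclear genes of this list than the other P0 cells: 19 of 32 were called lower and 1 higher, with a median of -0.44, where 35% of all genes were lower and 31.7% higher. LECs had 11 of 31 lower and 1 higher, with a median of -0.58 (all genes 22.6% and 15.3%). In VECs LRPPRC was at 59.0 against 112 CPM (-0.88, SE 0.09, edgeR adjusted p = 6.2e-09) and TFB2M at 31.8 against 53.1 (-0.69, SE 0.09). PPARGC1A, a biogenesis regulator, was at 0.726 against 3.82 CPM (-2.16, SE 0.40, edgeR adjusted p = 5.1e-05). The P0 VEC samples held a median of 1100340 UMIs, so the PPARGC1A level there rests on very few UMIs. TFAM was not called in VECs (0.14, SE 0.10, adjusted p = 0.291).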
